A study of Mus musculus with 12 samples.

Results

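The myosin heavy chain genes of the heart (Myh6, Myh7 and Myh7b), its myosin light chain genes (Myl2, Myl3, Myl4 and Myl7) and Mylk3, the cardiac myosin light chain kinase, were followed in mouse hearts. These 8 genes were taken by name out of 31722 gene symbols, and all of them were expressed highly enough to be tested. Messenger RNA was sequenced from the hearts of C57BL/6J mice, 6 of a CCL4 group, given carbon tetrachloride, and 6 of a Control group. Carbon tetrachloride is a solvent that injures the liver and is used to produce cirrhosis, and the comparison asks what happens in the heart. The labels give no dose, duration, age or sex for either group, name no allele, and do not say which chambers a heart sample held.

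Sarcomeric myosin is a hexamer in which a pair of heavy chains carries the motor heads and each head binds an essential and a regulatory light chain. In adult mouse hearts the fast alpha heavy chain of Myh6 dominates, while the slower beta heavy chain of Myh7 is the fetal form and is known to return under pressure load, in failing hearts and when thyroid hormone is low. Myl2 and Myl3 encode the regulatory and essential light chains of the ventricle, Myl7 and Myl4 those of the atrium, and Mylk3 phosphorylates the ventricular regulatory chain. Values are RPKM, reads scaled by the length of the gene and the reads of the library, so they are levels per length. The length is that of all exon bases of a gene, and for Myl4 above all this choice moves its level against other genes.

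None of the 8 genes passed the test between CCL4 and Control hearts, and the groups overlapped for every one of them. Of 14087 genes tested with limma on log2(RPKM + 1), 0 (0%) had a Benjamini-Hochberg adjusted p under 0.05. The lowest adjusted value was 0.0731. Without adjustment, 1435 genes (10.2%) had p under 0.05, 226 of them higher (1.6%) and 1209 lower (8.58%) in CCL4 hearts, and an exact rank-sum test gave 1270. Of the members, Myh6 and Myh7b (2 of 8) were among those lower at this unadjusted level. The groups did not overlap for 107 genes (0.76%), 5 with CCL4 higher (0.0355%) and 102 with CCL4 lower (0.724%), against 0 of the 8 members. The median log2 fold change of all genes, CCL4 over Control, was -0.05, and 65.7% of genes lay on the lower side.

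The samples were hearts by their markers. The 9 cardiomyocyte markers that are no member, such as Tnni3 and Ttn, summed to 12293 to 18956 RPKM in CCL4 hearts and to 15779 to 20879 RPKM in Control hearts. Relative depth, computed from the size of the step that a single read leaves in the RPKM values, ran from 26351678 in Control replicate 6 to 63376495 in CCL4 replicate 4. Some libraries stood apart in ways that bear on the myosin genes. CCL4 replicate 3 had the lowest cardiomyocyte sum, the highest fibroblast marker sum (1227 RPKM, against 292 to 677 RPKM in Control hearts) and the highest macrophage marker sum (220.2 RPKM, against 52.4 to 74.7 RPKM). CCL4 replicate 4 and Control replicate 1 carried the most RNA of atrial markers. Replicates 2 and 5 of both groups had at most 0.13 RPKM of Xist, and the other 4 hearts of each group had 19.4 to 31.1 RPKM. Ddx3y ran the opposite way, at 6.18 to 7.79 RPKM in the hearts low in Xist and at most 0.03 RPKM in the others. In whole tissue, fewer cells of a type and less RNA per cell cannot be told apart.

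Myh6 was the most abundant member in every heart and stood at rank 14 among all symbols by its mean level over the 12 hearts. It measured 8991 RPKM in the lowest CCL4 heart, 13825 RPKM in the median and 16038 RPKM in the highest. Control hearts had 13482 RPKM in the lowest, 16510 RPKM in the median and 17697 RPKM in the highest. All 6 CCL4 hearts lay below the Control median, and only Control replicate 6 fell inside the CCL4 range. Control replicate 5 (16047 RPKM) lay barely above the highest CCL4 heart. The means were 13468 ± 2388 RPKM in CCL4 hearts and 16213 ± 1462 RPKM in Control hearts (SD, n = 6 each). The log2 fold change was -0.28 (SE 0.13, 95% interval -0.56 to -0.01), with an unadjusted p of 0.0425 and an adjusted p of 0.462 by limma. Without CCL4 replicate 3 it was -0.17 (adjusted p = 0.355). The lowest value was that of CCL4 replicate 3, whose cardiomyocyte markers were also lowest. Set per 100 RPKM of those markers, Myh6 was at 79.7 ± 7.14 in CCL4 hearts and 88.2 ± 8.14 in Control hearts, with 5 of 6 CCL4 hearts below the Control median.

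Myh7 was far lower than Myh6 in both groups and showed no common direction. Its lowest, median and highest levels were 228.4, 282.1 and 462.4 RPKM in CCL4 hearts. The same levels were 232.6, 295.1 and 300.4 RPKM in Control hearts. The highest value belonged to CCL4 replicate 3, and 3 CCL4 hearts lay above and 3 below the Control median. The means were 302.6 ± 84.6 RPKM in CCL4 hearts and 283.4 ± 25.9 RPKM in Control hearts (SD, n = 6 each), a log2 fold change of 0.06 (SE 0.15, 95% interval -0.26 to 0.38, limma adjusted p = 0.927). Without CCL4 replicate 3 the log2 fold change was -0.071. It also changed sign when the values were rescaled to TPM (-0.017), with array weights (-0.12) and without both libraries numbered 1 (-0.0101), so no direction can be given.

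Myh7b encodes a slow heavy chain, known from skeletal muscle and heart, whose gene hosts miR-499. It ran at 82.5, 114.5 and 178.6 RPKM in the lowest, median and highest CCL4 hearts. In Control hearts these values were 129.3, 178.2 and 202.8 RPKM. Of 6 CCL4 hearts, 5 lay below the Control median, and CCL4 replicate 1 (178.6 RPKM) lay beside it. Means were 125.9 ± 35.2 RPKM in CCL4 hearts and 173.7 ± 24.0 RPKM in Control hearts (SD, n = 6 each). The log2 fold change was -0.49 (SE 0.17, 95% interval -0.86 to -0.13, unadjusted p = 0.0115, limma adjusted p = 0.348). A fit that weights each library by its own scatter gave -0.54 with an adjusted p of 0.00768, in a setting where 2249 genes passed and CCL4 replicate 5 had a weight of 5.7 against 0.2575 for CCL4 replicate 3.

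**Figure D1:**
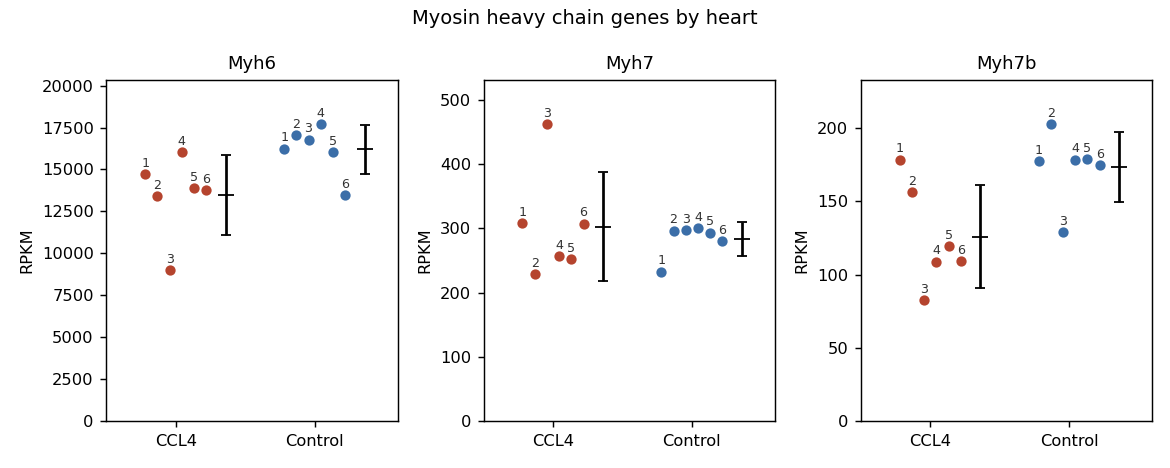
Levels of Myh6, Myh7 and Myh7b in RPKM in each heart, CCL4 left and Control right in each panel, with points labelled by replicate and bars for mean ± SD (n = 6 each). All 6 CCL4 hearts lay below the Control median for Myh6, and CCL4 replicate 3 had the highest Myh7 (462.4 RPKM) and the lowest Myh7b (82.5 RPKM).

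The share of each isoform within a heart does not depend on how the libraries were scaled. Myh6 made up 94.3% to 97.8% of the summed heavy chain RPKM in CCL4 hearts and 96.7% to 97.5% in Control hearts. The Myh7 share was 1.56% in the lowest CCL4 heart, 1.90% in the median and 4.85% in the highest, against 1.40%, 1.71% and 2.01% in Control hearts. Of 6 CCL4 hearts 4 had a Myh7 share above the Control median, and CCL4 replicate 3 alone lay far from the rest. In that heart Myh6 exceeded Myh7 by 19.4-fold, while Control hearts ranged from 48.1-fold to 69.8-fold. The Myh7b share averaged 0.908% ± 0.203 in CCL4 hearts and 1.05% ± 0.172 in Control hearts (SD, n = 6 each).

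Tested as the log2 ratio of Myh7 to Myh6, the isoforms gave -5.49 ± 0.62 in CCL4 hearts and -5.84 ± 0.17 in Control hearts (SD, n = 6 each). The difference was 0.34, with p = 0.203 in an exact two-sided permutation test and 0.365 after adjustment over the 5 isoform ratios tested. Without CCL4 replicate 3 the difference was 0.10. The log2 ratio of Myh7b to Myh6 was -6.77 ± 0.32 in CCL4 hearts and -6.55 ± 0.26 in Control hearts, a difference of -0.21 (exact permutation p = 0.229, adjusted 0.365). The exact test could reach 0.00216 at the smallest. Both differences were smaller than the spread between CCL4 hearts.

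**Figure D2:**
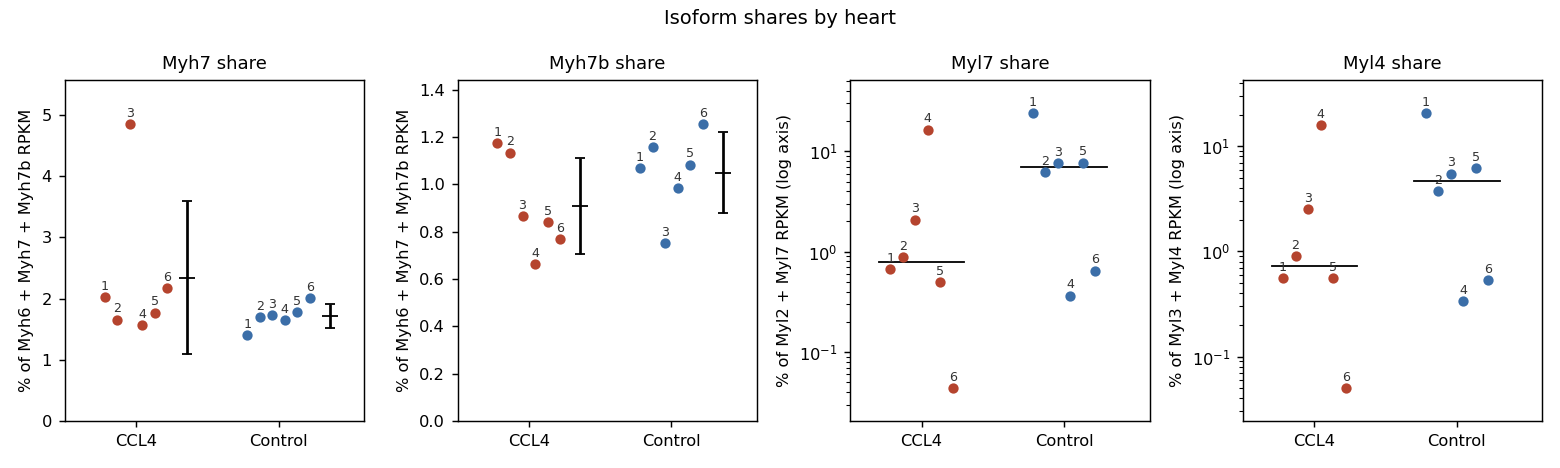
Share in percent of Myh7 and of Myh7b among heavy chains, Myl7 among Myl7 and Myl2, and Myl4 among Myl4 and Myl3 in each heart, with CCL4 left of Control and points labelled by replicate, bars for mean ± SD (n = 6 each) on linear panels and lines for the median on log panels. CCL4 replicate 3 had the highest Myh7 share (4.85%), and CCL4 replicate 4 and Control replicate 1 had the highest Myl7 shares (16.4% and 24.2%).

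Myh6 and Myh7 lie in tandem on the minus strand of chromosome 14 of GRCm38, Myh6 at chr14:54941921-54966927 and Myh7 at chr14:54970684-54994626. They are close copies: 687 of 6131 windows of 100 bases of the Myh7 transcript (11.2%) also occur in Myh6, and reads there may be assigned to either. Myh7b lies alone at chr2:155611212-155634307 on the plus strand. Each heavy chain gene has its own miRNA in an intron, and the mature sequences from RefSeq (GRCm38.p6) are printed because they show the family that the 3 genes share, with the seed, bases 2 to 8, in capitals:
mmu-miR-208a-3p, in Myh6, chr14:54949072-54949093, minus strand: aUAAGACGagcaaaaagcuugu
mmu-miR-208b-3p, in Myh7, chr14:54975710-54975731, minus strand: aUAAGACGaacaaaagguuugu
mmu-miR-499-5p, in Myh7b, chr2:155622893-155622913, plus strand: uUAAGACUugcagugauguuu

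The seed UAAGACG occurs in 2 of 1738 mature mouse miRNAs, miR-208a-3p and miR-208b-3p, and UAAGACU in 1, miR-499-5p. The miR-208 pair differs at 3 of 22 bases, G10A, A16G and C18U, counted from the 5′ end of miR-208a-3p, and none of them is in the seed. These miRNAs are known as a set that the heavy chain genes carry and that acts on the choice between fast and slow myosin. An mRNA library does not measure mature miRNAs, so the reads at these genes come from longer RNA. Mir208a shares no exon base with Myh6. At the Mir208a gene the level was 46.5, 56.8 and 84.4 RPKM in the lowest, median and highest CCL4 hearts, against 65.8, 83.9 and 123.9 RPKM in Control hearts. Mir208a was lower in CCL4 hearts by a log2 fold change of -0.54 (SE 0.18, unadjusted p = 0.00919, limma adjusted p = 0.323), and the groups overlapped. Mir208b averaged 68.9 ± 25.9 RPKM in CCL4 hearts and 95.9 ± 32.8 RPKM in Control hearts (SD, n = 6 each; log2 fold change -0.47, adjusted p = 0.527). Mir499 was listed at 0 in 7 hearts and was not tested.

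Mhrt, a long noncoding RNA known to be read from the opposite strand at the Myh7 end of the locus, lies at chr14:54968678-54974349 on the plus strand and shares 484 exon bases with Myh7. Those bases are 39.9% of Mhrt and 5.62% of Myh7. Mhrt measured 1242 to 1890 RPKM in CCL4 hearts and 1158 to 1534 RPKM in Control hearts, 4.09 to 5.44 times the Myh7 level in CCL4 hearts and 4.71 to 5.12 times in Control hearts. The strand setting of the counting is not given in the sources used here, so reads of Myh7 and Mhrt may not have been told apart in the shared bases. The same holds for the antisense gene model Gm29015, which shares 142 exon bases with Myh7, 68.6% of its own. Gm29015 was at 3158 RPKM in CCL4 replicate 3, the heart with the highest Myh7, at 575 to 1153 RPKM in the other CCL4 hearts and at 509 to 921 RPKM in Control hearts. Its part in the Myh7 values was not tested. The log2 fold change of Mhrt was 0.03 (SE 0.11, limma adjusted p = 0.953). Mhrt was the gene most like Myh7 over the 12 hearts (r = 0.959), and whether shared reads are part of that value was not tested.

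The 250 bases before the RefSeq start of Myh6 and before the upstream start of Myh7 (GRCm38.p6) are printed because each holds 1 copy of CATTCC, read on the other strand as GGAATG, the core of the site known to bind TEAD factors. Capitals mark that match:
Myh6, chr14:54966608-54966857, minus strand: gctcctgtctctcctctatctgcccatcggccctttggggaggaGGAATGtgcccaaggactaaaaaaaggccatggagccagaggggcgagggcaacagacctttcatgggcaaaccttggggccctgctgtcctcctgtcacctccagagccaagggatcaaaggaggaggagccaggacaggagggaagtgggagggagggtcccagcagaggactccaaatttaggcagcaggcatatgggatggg
Myh7, chr14:54994627-54994876, minus strand: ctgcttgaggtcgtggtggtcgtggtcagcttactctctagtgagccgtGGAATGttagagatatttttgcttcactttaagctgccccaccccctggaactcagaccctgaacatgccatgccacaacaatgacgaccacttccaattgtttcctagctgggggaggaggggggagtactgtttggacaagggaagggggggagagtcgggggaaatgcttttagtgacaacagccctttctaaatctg

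The match lay 206 to 201 bases before the start in Myh6 and 201 to 196 bases before it in Myh7. Of 32851 mouse promoter windows of the same length, 12.64% hold CATTCC on either strand, so a match is common. TATAAA (12.37% of windows), GATAAG (6.55%), AGGTCA (14.02%), the CArG box (1.47%) and the MEF2 site (2.92%) were also searched on both strands and were not found in these letters of Myh6 and of Myh7. RefSeq has a second, downstream start for Myh7, and the 250 bases before that start held none of the searched motifs. In the Myh7b window AGGTCA was found once. Of 25 tested transcription and chromatin factors known at heavy chain promoters, 5 were higher and 20 lower, with a median log2 fold change of -0.09 against -0.05 over all genes. None passed, and 4 were lower at an unadjusted p under 0.05 (8.58% of all genes were, and 65.7% of all genes lay lower). Tead4, which binds the CATTCC site, averaged 0.580 ± 0.0981 RPKM in CCL4 hearts and 0.801 ± 0.160 RPKM in Control hearts (limma adjusted p = 0.376). These levels are near the filter of 0.5 RPKM. Tead1 and Tead3, also on the list, were not among its 4 genes with the smallest p. Mef2d, Mef2a and the SRF coactivator Myocd had log2 fold changes of -0.21, -0.18 and -0.15.

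Thyroid hormone is the best known regulator of the Myh6 and Myh7 balance, acting through its receptor, which Thra encodes in the heart. In the list of hormone entry, conversion, receptors and heart target genes, 4 of 18 tested genes lay higher and 14 lower, at a median log2 fold change of -0.11 (-0.05 and 65.7% lower over all genes). None passed, and 5 were lower at an unadjusted p under 0.05, as were 8.58% of all genes. Ucp3, a mitochondrial carrier, averaged 2.84 ± 1.64 RPKM in CCL4 hearts and 8.99 ± 4.30 RPKM in Control hearts (log2 fold change -1.34, limma adjusted p = 0.246). Thra itself averaged 11.1 ± 1.33 RPKM in CCL4 hearts and 13.1 ± 1.38 RPKM in Control hearts (adjusted p = 0.443). Kcna5, a potassium channel gene, had a log2 fold change of -0.47, and Adrb1, the main beta-adrenergic receptor of cardiomyocytes, -0.19.

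Myl2 encodes the regulatory light chain of the ventricle, which sits at the neck of the myosin head (chr5:122100951-122113472, plus strand). Its lowest, median and highest levels in CCL4 hearts were 1344, 1811 and 2325 RPKM. In Control hearts they were 1312, 2165 and 2579 RPKM. Control replicate 1 was lowest of all 12 hearts, and the next Control heart was at 2130 RPKM. Apart from CCL4 replicate 1, the CCL4 hearts lay below the Control median. The means were 1809 ± 342 RPKM in CCL4 hearts and 2098 ± 419 RPKM in Control hearts, a log2 fold change of -0.21 (SE 0.16, 95% interval -0.56 to 0.14, limma adjusted p = 0.702). It was -0.34 without Control replicate 1, the heart with the most Myl7, -0.12 without CCL4 replicate 3 and -0.07 after quantile normalization. With the mean of the atrial markers as a covariate it was -0.33 (adjusted p = 0.309).

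Myl3, the essential light chain of the ventricle (chr9:110741861-110769798, plus strand), followed Myl2 from heart to heart. It measured 1274, 1951 and 2517 RPKM in the lowest, median and highest CCL4 hearts. Control hearts had 1487, 2592 and 3010 RPKM. All 6 CCL4 hearts lay below the Control median, and Control replicate 1 was again the lowest Control heart. Means were 1882 ± 415 RPKM in CCL4 hearts and 2441 ± 517 RPKM in Control hearts (SD, n = 6 each), with a log2 fold change of -0.37 (SE 0.18, 95% interval -0.76 to 0.01, unadjusted p = 0.0578, limma adjusted p = 0.507). Myl3 passed with both libraries numbered 1 left out (log2 fold change -0.60, adjusted p = 0.0396) and with library weights (-0.43, adjusted p = 0.0244). Many other genes passed there too, 307 of 13809 in the first setting and 2249 of 14087 in the second. The log2 fold change of Myl3 was -0.49 with the atrial marker covariate (adjusted p = 0.211) and -0.14 after quantile normalization. The ratio of Myl3 to Myl2 was 1.04 ± 0.0566 in CCL4 hearts and 1.16 ± 0.0723 in Control hearts. It was under the Control median in 6 of 6 CCL4 hearts, and the groups overlapped. This ratio was chosen after the values were seen and was not tested.

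**Figure D3:**
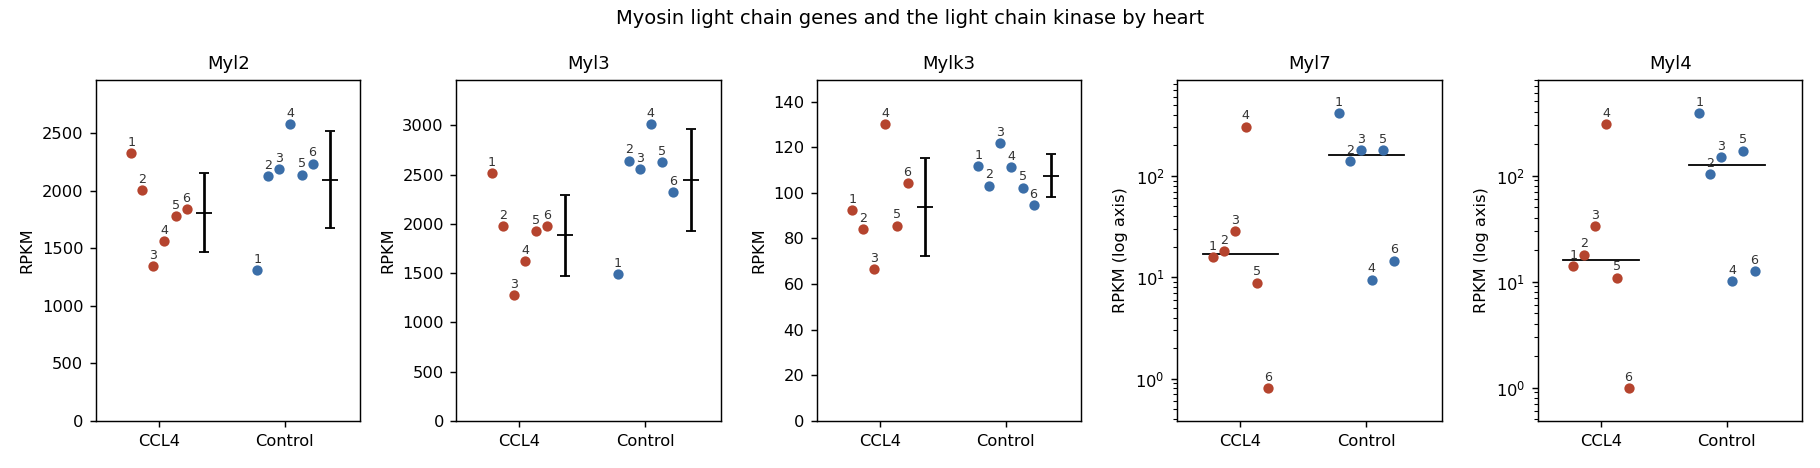
Levels of Myl2, Myl3, Mylk3, Myl7 and Myl4 in RPKM in each heart, CCL4 left of Control, with points labelled by replicate. Bars on linear panels give mean ± SD (n = 6 each) and lines on log panels the median. Control replicate 1 had the lowest Control values of Myl2 and Myl3 and the highest Myl7 (419.2 RPKM) and Myl4 (391.4 RPKM).

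Myl7 is the regulatory light chain of the atrium and a compact gene at chr11:5896637-5898782 on the minus strand. It spanned 0.811 to 306.6 RPKM in CCL4 hearts, with a median of 16.9 RPKM. Control hearts spanned 9.47 to 419.2 RPKM, with a median of 159.7 RPKM. CCL4 replicate 4 stood alone among CCL4 hearts, where the next highest was 28.7 RPKM. Among Control hearts, replicates 1, 2, 3 and 5 were at 140.7 RPKM or more, and replicates 4 and 6 were at 9.47 and 14.6 RPKM. The log2 fold change was -2.10 (SE 1.13, 95% interval -4.52 to 0.33, limma adjusted p = 0.547), with 5 of 6 CCL4 hearts below the Control median. With the mean of the tested atrial markers that are no member as a covariate it was -0.99 (adjusted p = 0.537), and without CCL4 replicate 6 it was -1.41. Without CCL4 replicate 4 it was larger, at -2.89 (limma adjusted p = 0.354). The interval covers both a large difference and none.

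Myl4, the essential light chain of the atrium and of the fetal heart, lies at chr11:104550663-104595753 on the plus strand and kept the same pattern. It spanned 0.993 to 305.8 RPKM in CCL4 hearts (median 16.0 RPKM) and 10.2 to 391.4 RPKM in Control hearts (median 125.8 RPKM). The highest hearts were the same as for Myl7. The log2 fold change was -1.86 (SE 1.10, 95% interval -4.23 to 0.51, limma adjusted p = 0.590). It was -0.77 with the atrial marker covariate (adjusted p = 0.621) and -1.19 without CCL4 replicate 6. Without CCL4 replicate 4 it was larger, at -2.64 (limma adjusted p = 0.375). The ratio of Myl7 to Myl4 stayed between 0.812 and 1.37 in all 12 hearts. Over the 12 hearts Myl4 and Myl7 had r = 0.997, the highest of all pairs of members, but the hearts fell into separate sets of high and low values.

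The Myl7 share of Myl7 and Myl2 had a median of 0.783% in CCL4 hearts (0.0440% to 16.4%) and 6.91% in Control hearts (0.366% to 24.2%). The Myl4 share of Myl4 and Myl3 had a median of 0.731% in CCL4 hearts (0.0503% to 15.9%) and 4.62% in Control hearts (0.337% to 20.8%). The log2 ratio of Myl7 to Myl2 was -6.78 ± 2.87 in CCL4 hearts and -4.68 ± 2.47 in Control hearts (SD, n = 6 each). The difference was -2.10, with p = 0.203 in the exact two-sided permutation test and 0.365 adjusted. For Myl4 to Myl3 the log2 ratio was -6.73 ± 2.82 in CCL4 hearts and -5.06 ± 2.37 in Control hearts (difference -1.66, exact permutation p = 0.292, adjusted 0.365). The difference in Myl7 to Myl2 was -1.23 without CCL4 replicate 6 and -2.99 without CCL4 replicate 4. In Myl4 to Myl3 it was -0.82 and -2.53 without the same hearts.

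Sln was high and low in the same hearts as the atrial light chains, and Bmp10 and Nppa were so only in part. Sln, which encodes sarcolipin, a small inhibitor of the calcium pump, was at 21.7 RPKM in CCL4 replicate 4 and at 1.75 RPKM or less in the other CCL4 hearts. Sln was at 37.6 RPKM in Control replicate 1 and between 0.740 and 10.5 RPKM in the other Control hearts. Nppa, the natriuretic peptide gene, was high in CCL4 replicate 4 (11077 RPKM) and Control replicate 1 (14184 RPKM), but also in CCL4 replicates 3 and 6 (9552 and 6675 RPKM), where Myl7 was at 28.7 and 0.811 RPKM. Of the 13 atrial markers that are no member, all but Nppa summed to 46.4 to 266.2 RPKM in CCL4 hearts (median 54.0 RPKM) and to 51.1 to 358.3 RPKM in Control hearts (median 136.4 RPKM). Bmp10, known from the atrial wall, was at 0 in 4 hearts and highest in CCL4 replicate 4 (12.2 RPKM) and Control replicate 1 (11.95 RPKM). Bmp10 was at 0.0208 RPKM in Control replicate 5, where Myl7 was at 178.7 RPKM, and at 1.11 RPKM in Control replicate 4, where Myl7 was at 9.47 RPKM. Of the 10 atrial markers tested, 2 were higher and 8 lower, with a median log2 fold change of -0.47 against -0.05 over all genes, and none passed. How much atrium the heart pieces held was not measured directly. The atrial marker covariate was the mean log2(RPKM + 1) of the 10 tested markers, Nppa among them. The differences of Myl7 and Myl4 were smaller with this covariate, as given above, and the markers and the light chains share their hearts.

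**Figure D4:**
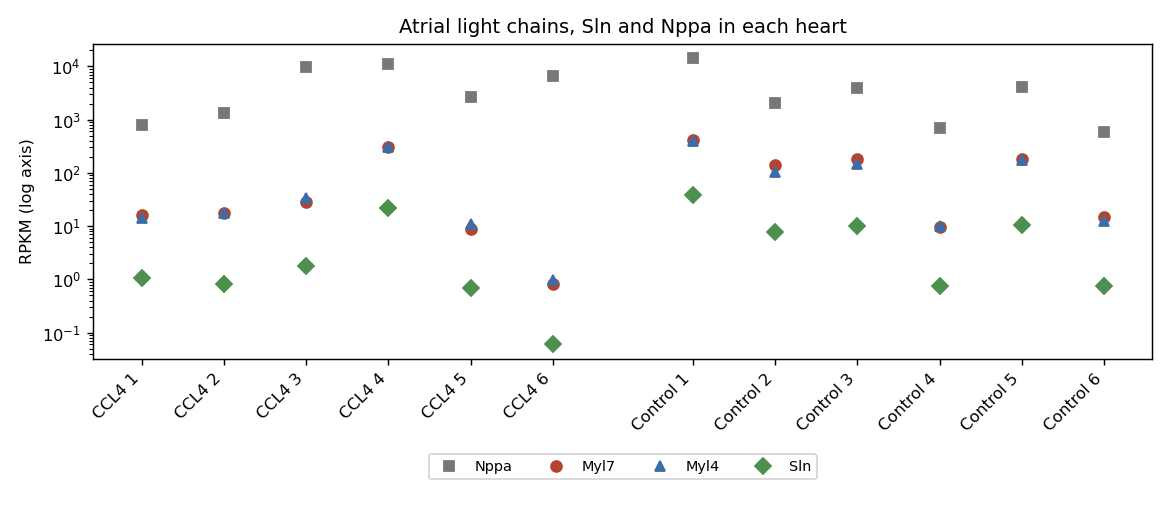
Levels of Nppa, Myl7, Myl4 and Sln in RPKM on a log axis in each of the 12 hearts, the 6 CCL4 hearts left of the 6 Control hearts, with 1 symbol for each gene. Myl7 and Myl4 lie close together in every heart (ratio 0.812 to 1.37), while Nppa is also high in CCL4 replicates 3 and 6, whose Myl7 was low.

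The 250 bases before the RefSeq start of Myl7 are printed because 3 kinds of searched motif lie close together near the start. Capitals mark CATTCC, the CArG box CCTTATTTGG, known to bind SRF, and GATAAG, known to bind GATA factors:
Myl7, chr11:5898783-5899032, minus strand: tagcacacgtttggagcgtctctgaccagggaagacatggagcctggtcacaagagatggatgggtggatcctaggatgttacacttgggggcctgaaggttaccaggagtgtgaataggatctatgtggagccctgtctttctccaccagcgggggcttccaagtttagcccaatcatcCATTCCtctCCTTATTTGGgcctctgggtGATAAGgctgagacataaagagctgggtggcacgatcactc

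These matches lay 70 to 65, 61 to 52 and 41 to 36 bases before the start. The window of Myl4 held none of the searched motifs, and Myl3 held CATTCC in 2 places and a CArG box. A match is a description of these letters, and no match says nothing of a factor.

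Mylk3 encodes the cardiac kinase that phosphorylates Myl2, and lies at chr8:85324303-85386345 on the minus strand. It measured 66.6, 89.1 and 130.1 RPKM in the lowest, median and highest CCL4 hearts, against 94.5, 107.3 and 121.8 RPKM in Control hearts. CCL4 replicate 3 was lowest and CCL4 replicate 4 highest of all hearts, so the CCL4 range enclosed the Control range. The log2 fold change was -0.22 (SE 0.14, 95% interval -0.51 to 0.07, limma adjusted p = 0.610). It was -0.13 without CCL4 replicate 3 and also after quantile normalization. Per 100 RPKM of Myl2, Mylk3 was at 3.98 to 8.33 RPKM in CCL4 hearts and 4.23 to 8.50 RPKM in Control hearts. The log2 ratio of Mylk3 to Myl2 differed by -0.015 (exact permutation p = 0.916), and its sign changed when any of several hearts was left out.

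Of 16 tested kinases, phosphatases and calmodulins acting on myosin light chain, 1 was higher and 15 lower in CCL4 hearts, with a median log2 fold change of -0.13 (-0.05 and 65.7% lower over all genes). None passed, and 3 were lower at an unadjusted p under 0.05, against 8.58% of all genes. Mylk4, a kinase of the same family, averaged 2.22 ± 1.68 RPKM in CCL4 hearts and 4.11 ± 0.802 RPKM in Control hearts (log2 fold change -0.80, adjusted p = 0.333). Mylk, the smooth muscle kinase, averaged 4.36 ± 0.680 RPKM in CCL4 hearts and 5.61 ± 0.369 RPKM in Control hearts (-0.31, adjusted p = 0.277). Ppp1r14a, an inhibitor of myosin phosphatase in smooth muscle, had a log2 fold change of -0.33, and Ppp1r12c, a phosphatase subunit, -0.20. Of 8 smooth muscle and pericyte markers, 1 was higher and 7 lower, 2 of them at an unadjusted p under 0.05, with a median of -0.24, and their part in these values was not tested.

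Partners of the thick filament were also read from a list. Of 17 tested, 5 were higher and 12 lower, with a median log2 fold change of -0.10 (-0.05 over all genes). At an unadjusted p under 0.05 there was 1 higher (1.6% of all genes) and 3 lower (8.58% of all genes). Unc45b, the chaperone that folds the myosin head, averaged 19.4 ± 3.48 RPKM in CCL4 hearts and 25.0 ± 2.58 RPKM in Control hearts (log2 fold change -0.37, SE 0.12, limma adjusted p = 0.333). Myom1, the myomesin of the M band, averaged 152.9 ± 16.1 RPKM in CCL4 hearts and 186.5 ± 22.8 RPKM in Control hearts (-0.28, adjusted p = 0.365). Mybpc2, the fast form of myosin binding protein C, averaged 1.38 ± 0.566 RPKM in CCL4 hearts and 2.50 ± 0.923 RPKM in Control hearts. Hspb7, a small heat shock protein of the sarcomere, averaged 642 ± 88.3 RPKM in CCL4 hearts and 529.8 ± 49.7 RPKM in Control hearts (log2 fold change 0.27, adjusted p = 0.402). Among 11 tested myosin chains of other muscle or non-muscle cells, 0 were higher and 11 lower, with a median of -0.21 (-0.05 and 65.7% lower over all genes). At an unadjusted p under 0.05 there was 1 lower, near the share of all genes (8.58%). In that list Myl6b, a light chain of smooth and non-muscle myosin, had a log2 fold change of -0.19 and Myh11, the smooth muscle heavy chain, -0.26, while the fibroblast and macrophage markers had medians of 0.84 (8 of 9 higher) and 0.41 (7 of 8 higher) and the endothelial markers -0.37 (9 of 9 lower). Of the endothelial markers 8 were lower at an unadjusted p under 0.05 (8.58% of all genes were, and 65.7% of all genes lay lower). The 9 endothelial markers summed to 115.7 to 177.1 RPKM in CCL4 hearts and 180.7 to 219.9 RPKM in Control hearts. These sums did not overlap, and of all genes tested singly 0.724% had no overlap with CCL4 lower. The median was 0.00 for 10 ventricular markers (5 higher and 5 lower), -0.12 for 9 cardiomyocyte markers (2 higher and 7 lower) and -0.34 for 4 skeletal muscle markers (1 higher and 3 lower), and no gene of these lists passed.

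On the deposited scale Myh6 was the highest member in 12 of 12 hearts, followed by Myl3 and Myl2, and Myl2 was above Myh7 and Myh7 above Myh7b in 12 of 12. Below Myl2 the place of the atrial chains varied. Myl7 and Myl4 were above Myh7 in CCL4 replicate 4 and Control replicate 1 and above Myh7b in Control replicate 3 as well, and Myh7b was above Myl7 in the other 9 of 12 hearts. Myh7b was above Mylk3 in 11 of 12 hearts, the exception being CCL4 replicate 4. Myl3 was above Myl2 in 10 of 12 hearts and Myl7 above Myl4 in 8 of 12, so these neighbours cannot be ordered beyond their spread. With transcript lengths in place of all exon bases, Myl4 lay above Myl7 in 12 of 12 hearts. The summed heavy chains were at 13897 ± 2336 RPKM in CCL4 hearts and 16670 ± 1469 RPKM in Control hearts (SD, n = 6 each). Relative to them, the essential chains were at 11.7% to 16.6% in CCL4 hearts and 11.3% to 16.9% in Control hearts. The regulatory chains were at 11.4% to 15.4% in CCL4 hearts and 10.4% to 16.2% in Control hearts. These percentages rest on all exon bases, 1950 for Myl2 and 2044 for Myl3, against 889 and 937 bases in their longest coding transcripts. For Myh6 the lengths are 6726 and 6113 bases. Percentages by transcript length were not computed and would be higher.

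**Figure D5:**
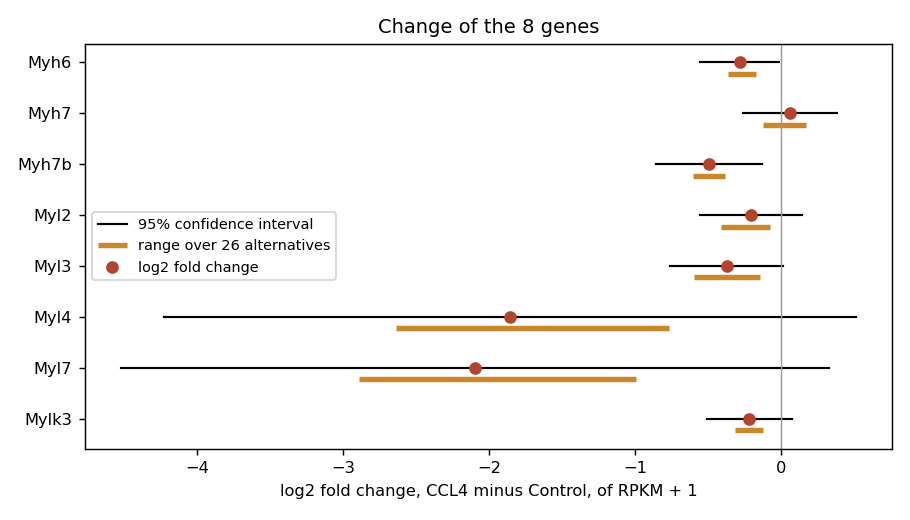
Log2 fold change of the 8 genes, CCL4 over Control, with 95% intervals from limma and, in orange, the range over 26 alternative settings. Myl7 and Myl4 had the widest intervals (-4.52 to 0.33 and -4.23 to 0.51), and the Myh7 range crosses 0.

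For each member the 5 genes most like it over the 12 hearts were found by Pearson r of log2(RPKM + 1), as a description in which all points share the depth and the makeup of their libraries. Nearest to Myh6 were Unc45b (r = 0.975), Nudt8 (0.967), Dhrs7c (0.957), Fem1a (0.952) and Ndufv1 (0.951). Myh7 was nearest, after Mhrt, among others to Cotl1 (0.943), Tubb2b (0.914) and Mx1 (0.909). By ranks (Spearman) these values were lower, at 0.783, 0.727 and 0.685. Myh7b was nearest to Pde4c (0.965), Car4 (0.941), Ndufb2 (0.938), Plxnb1 (0.937) and Tnni3 (0.933). Myl2 was nearest to Myl3 (0.960), Cox17 (0.953), Cenpv (0.925), Mrpl18 (0.917) and Mpc2 (0.917). Myl3 was nearest to Cox17 (0.975), Cenpv (0.967), Ndufb5 (0.962), Uqcr11 (0.961) and Mtfp1 (0.960). Mylk3 was nearest to Art3 (0.958), Aldh4a1 (0.956), Tmem182 (0.955), Ptgr2 (0.951) and Mut (0.949). The atrial chains were nearest to each other and then to Mybphl (r = 0.969 for Myl4 and 0.962 for Myl7) and Sln (0.964 and 0.961), with Sbk3 near both, Fgf12 near Myl4 and Cfd near Myl7 (0.931). Among the members, Myh6 and Mylk3 had r = 0.861, and Myh6 and Myh7 had r = -0.597. CCL4 replicate 3 had both the lowest Myh6 (8991 RPKM) and the highest Myh7 (462.4 RPKM) of all hearts. The r of Myh6 and Myh7 without that heart was not computed, so no opposite course of these genes can be read from it.

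Values of light chains depend on the length used for RPKM. The deposited scale uses all exon bases of a gene, 4637 bases for Myl4 but 943 bases in its longest coding transcript, while Myl7 has 590 bases in each. With transcript lengths the Myl4 share spanned 0.113% to 29.8% in CCL4 hearts and 0.757% to 37.2% in Control hearts. The Myl7 share then spanned 0.0201% to 8.21% in CCL4 hearts and 0.167% to 12.7% in Control hearts, and the Myh7 share 1.96% to 6.02% in CCL4 hearts and 1.75% to 2.51% in Control hearts. The hearts that were highest stayed the same, but the level of Myl4 against Myl7 or Myl3 rests on this choice.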

How the data were processed

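Messenger RNA of 12 mouse hearts was sequenced, 6 of the CCL4 group and 6 of the Control group, and groups were read from the sample titles. TRIzol extraction and a stranded mRNA kit were used, per the labels' protocols. The submitters' processing notes name Trimmomatic 0.36, Subread 1.5.1 with featureCounts, and the GRCm38 build. Not given in the sources used here are the aligner, the annotation and the strand setting of the counting.

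The authors deposited RPKM values for 31722 gene symbols in 12 columns, with no counts. RPKM times the exon length in GENCODE release M21, which matched 30270 symbols (95.4%), gave the step that 1 read adds. Of low values (up to 30 steps), 92.6% to 93.9% lay within 0.05 step of a whole number. The relative depths are the library sizes that the size of this step implies.

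A gene was tested if 6 or more libraries held 0.5 RPKM or more (14087 genes). A limma trend fit (version 3.58.1, R 4.3.3) was made to log2(RPKM + 1) with no covariate, and p-values were adjusted by Benjamini-Hochberg over all of them, with a threshold of 0.05. A fold change is CCL4 over Control on this scale, which understates the change of low genes. P-values refer to the spread between these hearts. The 5 isoform ratios were compared by an exact two-sided permutation test over 924 splits. The steps were tested on simulated data. The members, gene lists and naming rule were chosen with earlier results of these data known. The rule names all 8 members, the 5 genes most like each one (named symbols with a mean of at least 1 RPKM), up to 4 genes with the smallest p from each of the lists on the thick filament, light chain kinases, other myosins, miRNA and antisense genes, thyroid hormone and promoter factors, and Sln, Nppa and Xist. Not every such gene is described, and 1 of those most like Myh7 is not reported here. Alternatives covered the pseudocount, filter, scaling, weights, covariates, replicate block, rank-sum test and libraries left out. Voom on the recovered steps and shares by transcript length were added after the data were seen. Sequences are from RefSeq (GRCm38.p6). Tables were made in Python 3.11.15 (pandas 2.3.3 and numpy 2.4.6) and plots with matplotlib 3.10.9.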

Additional observations from a re-analysis of the deposited data

Results flagged for a closer look

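Among 26 groups of 6 values screened, 11 had a highest or lowest heart that stood apart from the others of its group by a gap larger, as a share of the group's range, than the critical value of Dixon's test (chance gives about 1 in 20 groups). That chance value is for normally spread values. The groups are not independent, since the shares are built from the same levels and the same hearts recur. In CCL4 replicate 3, Myh7 was at 462.4 RPKM, where the next CCL4 heart was at 308.7 RPKM, and the Myh7 share was 4.85%, where the next was 2.17%. In CCL4 replicate 4, Myl7 was at 306.6 RPKM (next 28.7 RPKM) and Myl4 at 305.8 RPKM (next 33.1 RPKM), and the Myl7 share was 16.4% (next 2.09%) and the Myl4 share 15.9% (next 2.53%). In Control replicate 1, Myh7 was lowest at 232.6 RPKM (next 280.1 RPKM) and Myl2 lowest at 1312 RPKM (next 2130 RPKM). The same heart had the highest Control Myl7 share at 24.2% (next 7.70%), Myl4 share at 20.8% (next 6.15%) and Mylk3 per 100 RPKM of Myl2 at 8.50 RPKM (next 5.56 RPKM).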

How the results depend on the processing

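With 26 alternatives, 0 of the 8 genes passed in 24. With array weights 2 passed (Myh7b, adjusted p = 0.00768, and Myl3, adjusted p = 0.0244), in a setting where 2249 of 14087 genes passed. Without both libraries numbered 1, 1 passed (Myl3, adjusted p = 0.0396), in a setting where 307 of 13809 genes passed. The count among the 8 genes was 0 with each library left out in turn (0 to 0) and with the replicate block. Replicate numbers were not taken as pairs: same-numbered hearts deviated together with r between -0.474 and 0.232, over 0.1 in 3 of 6 pairs, and 2 of 6 correlated best with their own number. Low Xist did recur at the same numbers, 2 and 5, in both groups. Myh7 lay slightly higher in CCL4 hearts (0.06) but reversed to -0.017 with TPM, to -0.12 with array weights, to -0.0101 without both libraries numbered 1 and to -0.071 without CCL4 replicate 3, with a range of -0.071 to 0.13 over the libraries left out. The other 7 genes kept their direction in all 26 alternatives. The filters, the rank-sum test and the replicate block leave the fold change as it was, so those settings could not change a direction. The log2 ratio of Mylk3 to Myl2 ran from -0.15 to 0.13 over the libraries left out and was 0.20 without both libraries numbered 1. The other 4 ratios kept their direction and stayed above the threshold in all 18 alternatives. For Myh7 to Myh6 the adjusted p ran from 0.168 to 0.667. The cause of these changes was not tested. Voom on the recovered steps called 0 genes, with 1371 at an unadjusted p under 0.05.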
